A study of Mus musculus and Rattus norvegicus with 32 samples.

Results

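Hearts of METTL5-cKO mice that had undergone no surgery were compared with control hearts at 3 months of age, across all genes. The comparison takes in 8 of the 32 samples of the series, 4 METTL5-cKO and 4 control hearts, chosen by the age and genotype in the sample labels. Hearts 4 weeks after transverse aortic constriction (TAC), given the same age of 3 months, were read beside them. So were hearts of METTL5-KO mice at 1 month, and each set had its own controls. The series asked how METTL5 acts in the heart at rest, under pressure overload and in cultured cardiomyocytes. All mice were C57BL/6. METTL5-cKO mice carried METTL5 fl/fl, alleles made with CRISPR in which exons 2, 3 and 4 lie between loxP sites, together with αMHC-Cre, a Cre recombinase driven by the cardiomyocyte promoter of Myh6. Deletion is thus directed to cardiomyocytes, and the other cells of the heart keep the gene. The titles of these samples read Mettl5-cKO, whereas their genotype field reads Mettl5-KO. The controls are labelled Ctrl and were described as littermates. Whether they carried Cre is not given in the sources used here, so an effect of Cre and an effect of losing METTL5 cannot be told apart. Each library was made from total RNA of heart tissue, in which fewer cells of a type and less RNA per cell cannot be told apart.

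METTL5 is the methyltransferase that places N6-methyladenosine on 18S ribosomal RNA, and it is kept stable by its partner TRMT112. The mark lies near the decoding centre of the small ribosomal subunit, so METTL5 has been studied mainly for its part in translation. In the adult heart, cardiomyocytes supply most of the RNA but are outnumbered by endothelial cells, fibroblasts and other cells.

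Mettl5 (ENSMUSG00000051730) lies on the minus strand of chromosome 2. Its annotated coding transcript of 968 bases has 7 exons. Exons 2 to 4 hold 380 of its 627 coding bases (60.6%), which leaves a remainder of 2 when divided by 3, so that joining exon 1 to exon 5 changes the reading frame. Exon 3 contains the 4 codons of the NPPF motif, the catalytic signature of this enzyme family. A stretch of exon 3 is shown because it is part of what Cre removes, with the NPPF codons in capitals, read 5′ to 3′ along the transcript from GENCODE vM21 (GRCm38 chr2:69880767-69880821, minus strand).
Mettl5 exon 3, 55 bases: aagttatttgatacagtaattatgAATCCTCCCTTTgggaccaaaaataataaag
Mettl5 measured 7.42, 8.12, 7.03 and 6.87 CPM in control libraries 1 to 4, where CPM is the count of a gene scaled to a common library size after TMM normalization. METTL5-cKO libraries 1 to 4 had 5.61, 6.28, 6.875 and 7.28 CPM, so the groups overlapped. The difference, METTL5-cKO minus control, did not pass the test (log2 fold change -0.18, SE 0.116, adjusted p = 0.884; SE is the standard error on the log2 scale). The count covers all exons, of which exons 2 to 4 are 39.3% of the transcript bases, and the gene overlaps Gm13625, of the same strand, and Ssb, of the opposite strand. The gene-level count therefore does not check the deletion of exons 2 to 4, which was not measured separately here. The paper reports from a view of its RNA-seq reads that these exons were nearly absent in METTL5-cKO hearts. Trmt112, the gene of the METTL5 partner, had 8.58 to 10.7 CPM in controls and 7.87 to 11.4 CPM in METTL5-cKO hearts (log2 fold change -0.05, SE 0.133, adjusted p = 0.999).

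Total counts ranged from 20503672 to 21739203 per library. The 10 most abundant genes took 34.7 to 38.25% of them and genes of the mitochondrial genome 33.19 to 35.98%, with overlapping groups. On the first principal component of log2 CPM (27.4% of the variance) control library 1 lay beside METTL5-cKO library 1, at 33.92 and 32.98, and control library 3 beside METTL5-cKO library 4, at -28.62 and -27.3. The second component (17%) separated the genotypes, with controls at 13.27 to 21.06 and METTL5-cKO libraries at -30.14 to -4.163. Libraries are numbered 1 to 4 in the order of their columns, whose names give the group and a number that matches no sample label. The 13 cardiomyocyte markers summed to 54730 to 57760 CPM in controls and 48750 to 55540 CPM in METTL5-cKO hearts. The 7 atrial markers summed to 48.11 to 76.63 CPM in controls and 43.18 to 54.35 CPM in METTL5-cKO hearts. Of these, Myl7, Sln and Bmp10 were too low to be tested. Among the 4 tested, 3 lay above 0 and 1 below, and 0 reached an unadjusted p under 0.05 in edgeR.

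By edgeR's quasi-likelihood test, 8 of 16391 genes (0.0488%) had a Benjamini-Hochberg adjusted p under 0.05 together with an absolute log2 fold change over 1. Of these, 6 were higher (0.0366%) and 2 lower (0.0122%). Without the minimum fold change there were 12 genes (0.0732%), 8 higher (0.0488%) and 4 lower (0.0244%). An unadjusted p under 0.05 was reached by 1155 genes (7.05%), 593 higher (3.62%) and 562 lower (3.43%), and the median log2 fold change of all genes was 0.00. The groups did not overlap for 694 genes (4.23%), with METTL5-cKO higher for 359 (2.19%) and lower for 335 (2.04%). Among the genes that rose were Ucp2, Phlda3, Ndnf and Slc38a1, which encode a mitochondrial carrier, a membrane signaling protein, a secreted glycoprotein and an amino acid transporter. Myl1, which encodes a myosin light chain, fell. The number of calls depended on the method and on single libraries. DESeq2's Wald test called 32 genes by the same thresholds (0.177%) and 108 of any size (0.598%), and edgeR called 2 without control library 4, 3 without control library 2 and 5 without control library 3 or METTL5-cKO library 2. Without the filter on low counts, 7 of the 8 calls were lost, those of Ucp2, Phlda3, Ndnf, Slc38a1, 2310015A16Rik, 1700094D03Rik and Myl1, and the cause was not tested.

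**Figure D1:**
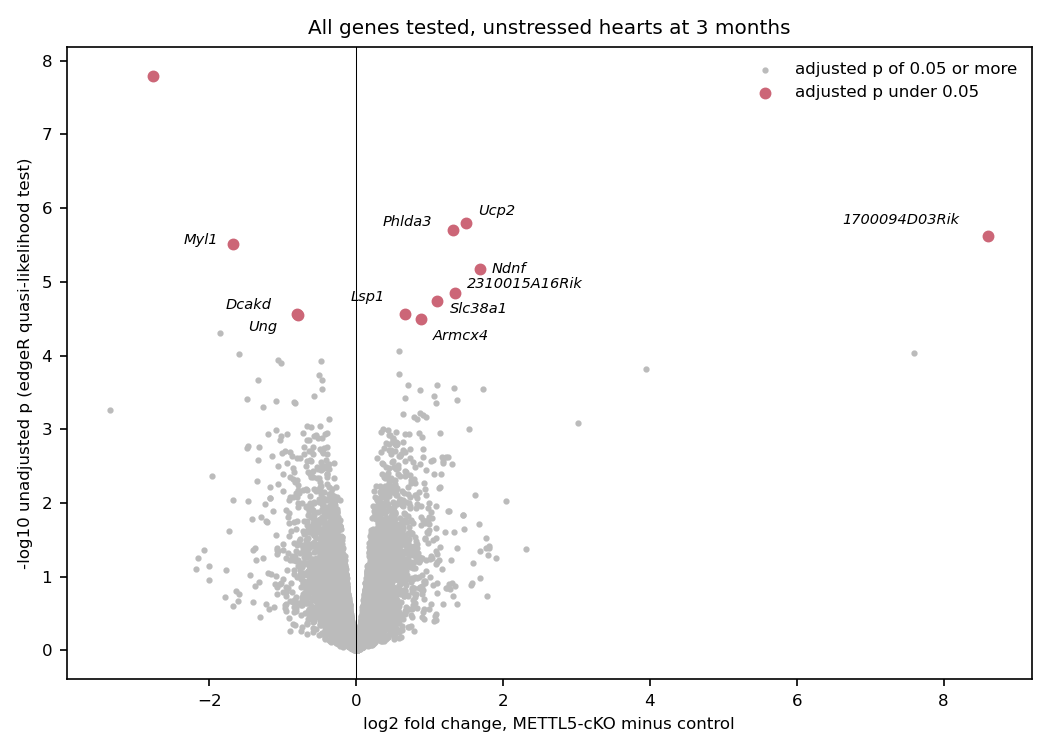
Each point is 1 of the 16391 genes tested. The horizontal axis is the log2 fold change, METTL5-cKO minus control, and the vertical axis is the -log10 of the unadjusted p. The 12 coloured points had an adjusted p under 0.05, 8 to the right of 0 and 4 to the left, and the grey cloud is centred near 0.

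Ucp2 encodes a carrier of the inner mitochondrial membrane that is known from work on uncoupling and reactive oxygen species. It had 43.9, 40.3, 46.2 and 36.9 CPM in control libraries 1 to 4 and 131, 134, 119.8 and 86.03 CPM in METTL5-cKO libraries 1 to 4. Every METTL5-cKO library exceeded every control, and METTL5-cKO library 4 was the lowest of its group. The mean was 41.8 ± 4.07 CPM in controls and 118 ± 22.02 CPM in METTL5-cKO hearts (SD, n = 4), and the gene rose (log2 fold change 1.49, SE 0.146, adjusted p = 0.00967). Omitting control library 2 gave an adjusted p of 0.0575 and omitting control library 4 one of 0.0507. The gene overlaps Dnajb13 on the other strand.

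Phlda3 encodes a pleckstrin homology domain protein that competes with AKT for membrane lipids, and it is a known target of p53. Control libraries had 5.04, 6.44, 5.24 and 5.235 CPM, and METTL5-cKO libraries had 13.9, 15.7, 11.2 and 14.2 CPM. The gap between the groups was wider than the range within either. Phlda3 rose (log2 fold change 1.32, SE 0.132, adjusted p = 0.00967), and without control library 4 the adjusted p was 0.0507.

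Ndnf encodes a secreted glycoprotein with fibronectin type III domains. It had 4.38, 2.804, 2.41 and 3.32 CPM in control libraries and 10.9, 11.5, 10.9 and 8.09 CPM in METTL5-cKO libraries, without overlap. Ndnf rose (log2 fold change 1.68, SE 0.1925, adjusted p = 0.0182), and with single libraries omitted its log2 fold change ranged from 1.56 to 1.86. The adjusted p stayed under 0.05 in 2 of those 8 fits. It was 0.11, 0.0593 and 0.0932 without control libraries 2, 3 and 4, and 0.0586, 0.105 and 0.0676 without METTL5-cKO libraries 1, 2 and 3.

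Slc38a1 encodes a sodium-coupled transporter of neutral amino acids that carries glutamine. It had 4.804, 5.16, 4.06 and 5.098 CPM in control libraries and 8.455, 11.3, 11.9 and 9.33 CPM in METTL5-cKO libraries. No library of one group reached the other, and the gene rose (log2 fold change 1.10, SE 0.1415, adjusted p = 0.0367). When single libraries were omitted, the adjusted p stayed under 0.05 in 1 of 8 fits, the one without METTL5-cKO library 1. It was 0.0862, 0.124, 0.114 and 0.139 without control libraries 1 to 4, and 0.167, 0.0985 and 0.0694 without METTL5-cKO libraries 2, 3 and 4.

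The long noncoding RNA gene 2310015A16Rik on chromosome 17 had 1.07, 0.9345, 1.13 and 1.09 CPM in control libraries and 2.58, 3.19, 2.202 and 2.81 CPM in METTL5-cKO libraries. The groups were apart, and it rose (log2 fold change 1.34, SE 0.168, adjusted p = 0.0338). The adjusted p stayed under 0.05 in 1 of 8 fits, the one without METTL5-cKO library 3. It was 0.0862, 0.132, 0.11 and 0.139 without control libraries 1 to 4, and 0.0732, 0.13 and 0.102 without METTL5-cKO libraries 1, 2 and 4.

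Myl1 encodes an alkali light chain of fast skeletal muscle myosin. It had 25.1, 23.8, 17.6 and 23.5 CPM in control libraries and 7.596, 4.87, 8.27 and 7.475 CPM in METTL5-cKO libraries. The highest METTL5-cKO library lay far below the lowest control, library 3. Myl1 fell (log2 fold change -1.67, SE 0.1755, adjusted p = 0.01015), and the adjusted p was 0.0575 without control library 2 and 0.0507 without control library 4. Mylf-ps, a pseudogene of this light chain, had 1.84 to 2.845 CPM in controls and 0.5155 to 1.12 CPM in METTL5-cKO hearts (log2 fold change -1.60, SE 0.252, adjusted p = 0.0981), and how reads of the pair were divided is uncertain. The ventricular light chain genes Myl2 and Myl3 had log2 fold changes of -0.16 and -0.11 (adjusted p = 0.946 and 0.955).

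**Figure D2:**
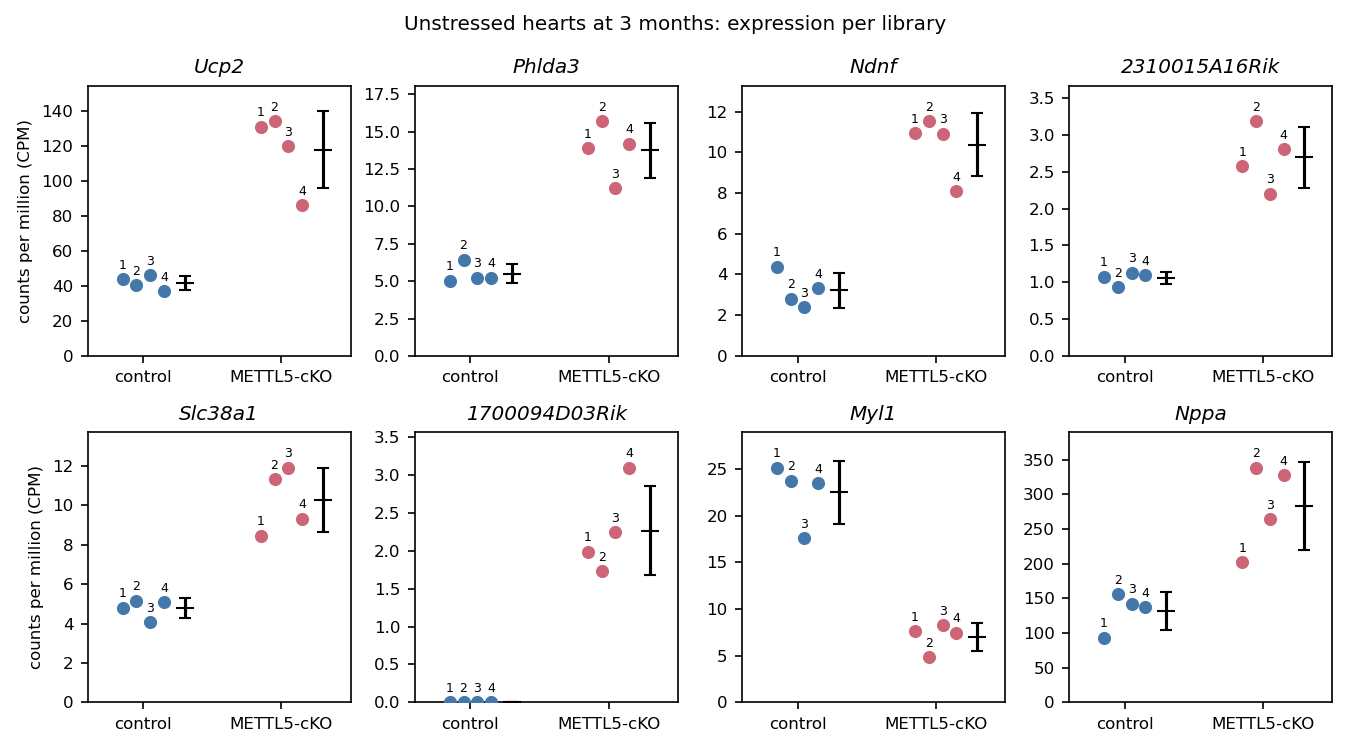
Each point is 1 library, numbered within its group, with CPM on a linear axis from 0; black marks are the mean and SD of 4 libraries. Ucp2, Phlda3, Ndnf, 2310015A16Rik, Slc38a1 and 1700094D03Rik were higher in every METTL5-cKO library than in any control, Myl1 was lower in every one, and Nppa, which did not pass the adjusted p, was higher in every one.

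Lsp1, Armcx4, Ung and Dcakd passed the adjusted p with absolute log2 fold changes under 1. Lsp1, an actin-binding protein of leukocytes and endothelial cells, had 21.4, 23.9, 21.2 and 22.1 CPM in controls and 35.2, 36.4, 37.65 and 31.04 CPM in METTL5-cKO hearts, and rose (log2 fold change 0.66, SE 0.0896, adjusted p = 0.0415). Armcx4, an armadillo repeat gene of the X chromosome, had 4.01, 4.62, 4.81 and 4.23 CPM in controls and 7.46, 7.26, 9.26 and 8.52 CPM in METTL5-cKO hearts, and rose (log2 fold change 0.88, SE 0.121, adjusted p = 0.0442). Both genes separated the groups, with every METTL5-cKO library on the high side. Ung, the uracil DNA glycosylase that starts base excision repair, had 13.1, 12.7, 12.1 and 14.02 CPM in controls and 8.23, 7.97, 6.425 and 7.33 CPM in METTL5-cKO hearts, and fell (log2 fold change -0.79, SE 0.107, adjusted p = 0.0415). Dcakd, a dephospho-CoA kinase domain gene that overlaps Nmt1 on the other strand, had 35.8, 37.6, 28.3 and 36.9 CPM in controls and 21.3, 18.1, 19.4 and 20.3 CPM in METTL5-cKO hearts, and fell (log2 fold change -0.81, SE 0.1095, adjusted p = 0.0415). These groups were apart as well, with every METTL5-cKO library on the low side. When single libraries were omitted, the adjusted p stayed under 0.05 in 1 of 8 fits for Lsp1 (without METTL5-cKO library 4) and for Dcakd (without control library 3), and in 0 of 8 for Ung and Armcx4. With any other library omitted it was 0.0977 to 0.262 for Lsp1, 0.0761 to 0.24 for Dcakd, 0.0732 to 0.214 for Ung and 0.0761 to 0.223 for Armcx4.

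RefSeq's promoter table (GRCm38.p6), with windows from 250 bases before to 50 after the annotated start, held 8 of the 12 genes. The windows of Ucp2 and Phlda3, which rose, and of Myl1 and Dcakd, which fell, are shown to set their composition side by side. They are printed 5′ to 3′ along the gene, and capitals mark the motifs found, searched on both strands. The observed to expected CpG ratio has a median of 0.384 over 32851 windows of the same length. It is 0.677 for Ucp2 (chr7:100493108-100493407, plus strand), 0.687 for Phlda3 (chr1:135765835-135766134, plus strand), 0.421 for Myl1 (chr1:66945007-66945306, minus strand) and 0.824 for Dcakd (chr11:103017098-103017397, minus strand). Of the other genes that rose, Armcx4 has 0.675, 2310015A16Rik 0.488 and 0.387 in its 2 windows and 1700094D03Rik 0.0658, and Ung, which fell, has 0.511. Genes that rose and genes that fell thus overlap in this ratio.
Ucp2 promoter: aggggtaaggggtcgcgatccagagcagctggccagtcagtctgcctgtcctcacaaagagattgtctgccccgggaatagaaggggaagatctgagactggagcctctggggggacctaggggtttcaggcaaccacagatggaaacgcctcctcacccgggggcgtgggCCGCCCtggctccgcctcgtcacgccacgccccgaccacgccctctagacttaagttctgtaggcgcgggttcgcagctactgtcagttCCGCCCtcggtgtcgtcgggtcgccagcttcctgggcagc
Phlda3 promoter: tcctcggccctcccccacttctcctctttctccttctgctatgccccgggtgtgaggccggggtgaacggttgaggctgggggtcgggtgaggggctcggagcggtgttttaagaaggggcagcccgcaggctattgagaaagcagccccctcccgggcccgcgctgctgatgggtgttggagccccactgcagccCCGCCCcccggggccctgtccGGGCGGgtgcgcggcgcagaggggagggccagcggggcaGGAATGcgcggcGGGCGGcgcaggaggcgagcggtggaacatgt
Myl1 promoter: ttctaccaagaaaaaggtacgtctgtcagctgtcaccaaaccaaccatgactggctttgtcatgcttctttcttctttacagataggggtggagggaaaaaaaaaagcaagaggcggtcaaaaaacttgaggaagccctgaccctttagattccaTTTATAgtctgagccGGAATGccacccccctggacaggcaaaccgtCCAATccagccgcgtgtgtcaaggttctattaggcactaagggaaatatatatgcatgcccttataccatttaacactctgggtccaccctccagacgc
Dcakd promoter: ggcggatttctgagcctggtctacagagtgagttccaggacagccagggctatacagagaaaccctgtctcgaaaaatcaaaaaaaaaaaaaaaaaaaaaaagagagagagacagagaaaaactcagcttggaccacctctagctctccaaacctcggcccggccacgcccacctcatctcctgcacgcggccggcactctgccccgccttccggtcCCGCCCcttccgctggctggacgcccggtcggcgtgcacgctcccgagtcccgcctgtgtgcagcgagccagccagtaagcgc
The letters GGGCGG, a GC box, occur at 2 positions in the Ucp2 and Ung windows, at 3 in the Phlda3 window and at 1 in the windows of Dcakd and Armcx4 and in 1 of the 2 of 2310015A16Rik, and in 35.7% of all windows. They are in neither the Myl1 nor the 1700094D03Rik window, so windows with and without them occur among genes of both directions. The Myl1 window holds TATAAA (13.6% of all windows), CCAAT (37.4%) and CATTCC (14.7%). CATTCC occurs also in the Phlda3 window and in 1 of the 2 of 2310015A16Rik, and CCAAT also in the Armcx4 window. CACGTG (7.15% of all windows), TGANTCA (7.81%), the glucocorticoid response element (0.00913%), the p53 half-site (8.36%), the MEF2 site (3.19%) and the CArG box (1.63%) were searched too, and these letters are in none of the 4 windows printed. In the windows not printed, 1700094D03Rik has a p53 half-site and Armcx4 has CACGTG.

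Genes of the fetal and stress programme, the usual readout of cardiac hypertrophy, were examined next. Of 22 such genes, 0 passed the adjusted p, 6 were higher and 0 lower at an unadjusted p under 0.05, and the median log2 fold change was 0.15. Over all genes tested, 3.62% were higher and 3.43% lower at that unadjusted p, and the groups were apart for 4.23%. These shares are the background for every list below. Nppa, the gene for atrial natriuretic peptide, had 93.05, 156, 142 and 137 CPM in control libraries and 202, 338, 264 and 328 CPM in METTL5-cKO libraries. All METTL5-cKO libraries were above all controls (exact two-sided permutation test, p = 0.0286, the smallest value that 4 against 4 libraries can give). Across all genes Nppa did not pass (log2 fold change 1.10, SE 0.196, adjusted p = 0.159 in edgeR, 2.9e-05 in DESeq2), and Gm13054 overlaps it on the other strand. Nppb, for brain natriuretic peptide, had 67.6, 173, 72.1 and 159 CPM in controls and 94.7, 182, 104 and 94.7 CPM in METTL5-cKO hearts, so that the groups overlapped (log2 fold change 0.01, SE 0.342, adjusted p = 0.9999).

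Acta1, the skeletal alpha-actin of the fetal programme, had 74.6, 135, 117 and 131 CPM in controls and 175, 255, 196 and 130.5 CPM in METTL5-cKO hearts (log2 fold change 0.73, SE 0.2275, adjusted p = 0.4904). METTL5-cKO library 4 lay within the control range. Gdf15, a stress cytokine, had 0.472 to 1.08 CPM in controls and 1.35 to 1.97 CPM in METTL5-cKO hearts, without overlap (log2 fold change 1.02, SE 0.255, adjusted p = 0.316). Ccn2, a matricellular growth factor, overlapped through control library 1 (log2 fold change 0.81, SE 0.243, adjusted p = 0.452). Ankrd1, which responds to stretch, had 887, 1000, 373 and 273 CPM in METTL5-cKO libraries 1 to 4, on both sides of the control range of 349 to 564 CPM. The adult and fetal myosin heavy chain genes did not pass the test, with log2 fold changes of -0.16 for Myh6 and -0.08 for Myh7 (adjusted p = 0.925 and 0.976). Of 25 ventricular sarcomere genes, 0 passed the adjusted p, 0 were higher and 1 lower at an unadjusted p under 0.05, and the median was -0.05.

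Phlda3 belongs to a list of 33 p53 target genes, in which 1 gene passed the adjusted p. Of the list, 7 were higher and 0 lower at an unadjusted p under 0.05 (3.62% and 3.43% of all genes). The groups were apart for 12.1% (4.23% of all genes), and the median log2 fold change was 0.12, with 22 genes above 0 and 11 below. Perp, a desmosomal membrane protein induced by p53, had 84.5, 78.2, 82.6 and 89.4 CPM in control libraries and 115, 121, 142 and 123 CPM in METTL5-cKO libraries. Its METTL5-cKO libraries all exceeded the controls (log2 fold change 0.58, SE 0.0903, adjusted p = 0.0981). Cdkn1a, the cell cycle inhibitor p21, had 31.6 to 55.4 CPM in controls and 47.4, 54.9, 181 and 75.3 CPM in METTL5-cKO hearts (log2 fold change 1.09, SE 0.3995, adjusted p = 0.597). METTL5-cKO library 3 stood far above the other libraries for it. Aen, an exonuclease gene, separated the groups at a log2 fold change of 0.30 (adjusted p = 0.512).

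Slc38a1 is also a member of a list of 36 genes of the integrated stress response and serine synthesis, in which it alone passed the adjusted p. There, 4 genes were higher and 1 lower at an unadjusted p under 0.05, with a median of 0.14. Eif4ebp1, an inhibitor of cap-dependent translation, had 45.9, 40.8, 43.9 and 40.4 CPM in controls and 57.15, 61.01, 53.9 and 50.1 CPM in METTL5-cKO hearts, without overlap (log2 fold change 0.38, SE 0.0889, adjusted p = 0.297). Slc7a5, a transporter of large neutral amino acids, had 2.5 to 3.92 CPM and 4.095 to 5.44 CPM (log2 fold change 0.47, SE 0.164, adjusted p = 0.567). The ATF4 targets Asns and Trib3 lay on the other side of 0, with log2 fold changes of -0.37 and -0.33 (adjusted p = 0.7535 and 0.669).

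Metabolic genes other than Ucp2 did not pass the adjusted p among 34 genes of uncoupling and fatty acid metabolism, whose median was -0.05. Acadvl, which opens the oxidation of very long chain fatty acids, had 569.5 to 611.5 CPM in controls and 482 to 539 CPM in METTL5-cKO hearts (log2 fold change -0.19, SE 0.0766, adjusted p = 0.642). Among 76 nuclear genes of oxidative phosphorylation, 71 lay below 0 and 5 above, with 0 past the adjusted p. Their median was -0.07, smaller in size than the SD of 0.186 between libraries of a group. Bckdha, a subunit of the branched-chain keto acid dehydrogenase, had 162, 183, 187 and 187 CPM in control libraries and 127.5, 129.9, 138 and 126.5 CPM in METTL5-cKO libraries. The METTL5-cKO libraries lay together below the controls (log2 fold change -0.46, SE 0.0805, adjusted p = 0.147 in edgeR, 2.5e-06 in DESeq2). Ogdhl, a relative of the 2-oxoglutarate dehydrogenase, had 116 to 129 CPM and 77.9 to 92.6 CPM, again without overlap (log2 fold change -0.46, SE 0.0841, adjusted p = 0.159 in edgeR, 6.4e-05 in DESeq2).

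Kcnv2, a modulatory subunit of voltage-gated potassium channels, had 13.8, 9.05, 15.9 and 11.2 CPM in control libraries and 5.56, 5.86, 5.796 and 6.76 CPM in METTL5-cKO libraries. All METTL5-cKO libraries were below all controls (log2 fold change -1.06, SE 0.1715, adjusted p = 0.1098 in edgeR, 7.4e-05 in DESeq2). Tesc, a calcium-binding regulator of sodium-proton exchange, had 58.8 to 61.8 CPM in controls and 40.6 to 46.5 CPM in METTL5-cKO hearts (log2 fold change -0.47, SE 0.0768, adjusted p = 0.1098 in edgeR, 4.6e-07 in DESeq2). Of 28 ion channel genes, 0 passed the adjusted p, with 1 higher and 2 lower at an unadjusted p under 0.05. Tnni2, fast skeletal troponin I, lay on the opposite side of 0 from Myl1, with 0.592 to 1.23 CPM in controls and 1.48 to 3.165 CPM in METTL5-cKO hearts (log2 fold change 1.25, SE 0.3065, adjusted p = 0.303). The 10 markers of skeletal muscle summed to 1.574 to 2.798 CPM in controls and 2.381 to 11.98 CPM in METTL5-cKO hearts, and 3 of them were high enough to be tested. The part of such RNA in these results was not tested.

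**Figure D3:**
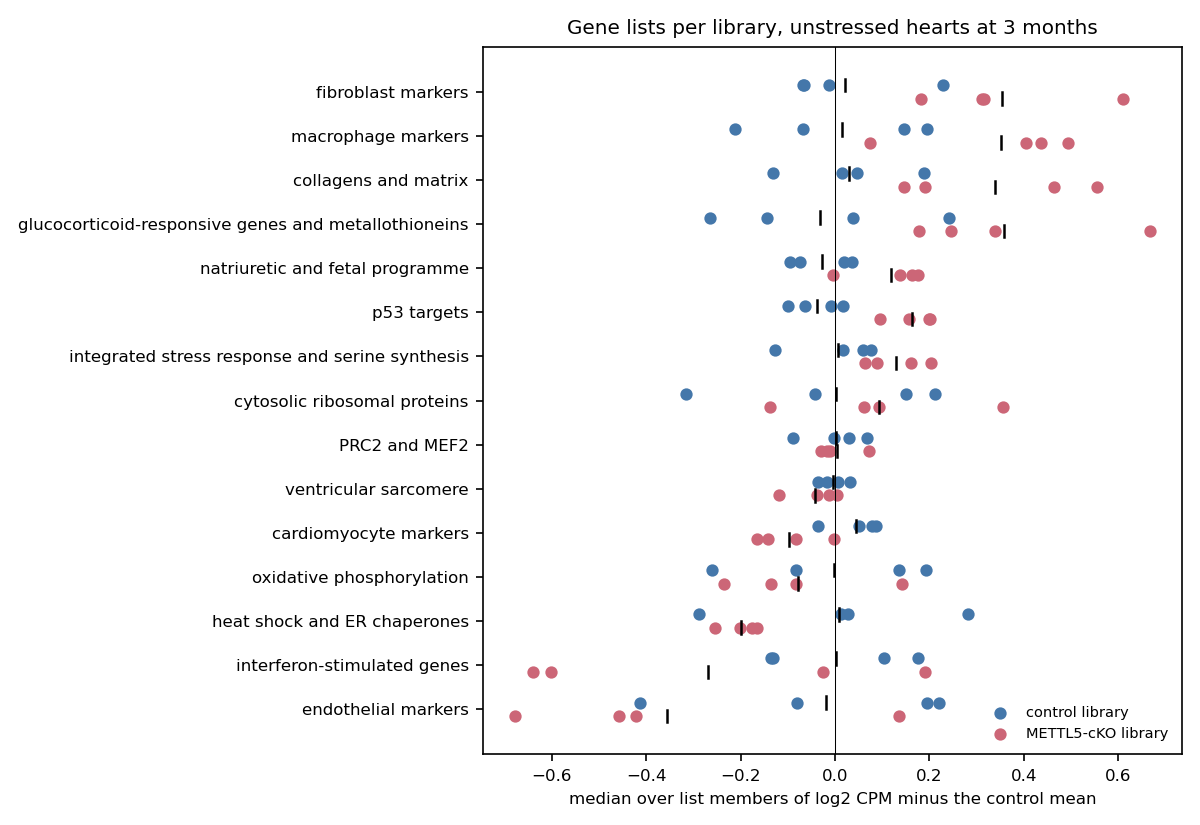
Each point is 1 library and gives the median, over the members of a gene list, of log2 CPM minus the mean of the control libraries; black bars are group means. The means of the METTL5-cKO libraries lie to the right for the fibroblast, macrophage and matrix lists. In each of these lists METTL5-cKO library 3 lies below control library 1, at 0.18 against 0.23, 0.07 against 0.20 and 0.15 against 0.19. The chaperone list lies between -0.25 and -0.17 in all 4 METTL5-cKO libraries but at -0.29 in control library 3. All of these lists, and the ribosomal protein list, overlap between the groups.

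Fibroblast genes lay toward higher values in METTL5-cKO hearts, with 0 past the adjusted p. Of 11 fibroblast markers, 10 were above 0, 7 were higher and 0 lower at an unadjusted p under 0.05, and the groups were apart for 36.4% (4.23% of all genes). The median log2 fold change was 0.43. Pdgfra, the receptor that marks cardiac fibroblasts, had 20.1, 14.5, 16.2 and 14.3 CPM in control libraries and 23.3, 25.96, 20.9 and 23.9 CPM in METTL5-cKO libraries. Control library 1 was the nearest to the METTL5-cKO libraries (log2 fold change 0.53, SE 0.127, adjusted p = 0.297). Dcn, the proteoglycan decorin, had 206 to 291 CPM in controls and 301 to 373 CPM in METTL5-cKO hearts (log2 fold change 0.49, SE 0.124, adjusted p = 0.316). Gsn and Tcf21 separated the groups as well, with log2 fold changes of 0.40 and 0.61 (adjusted p = 0.294 and 0.298). The summed level of the 11 markers was 1002 to 1238 CPM in controls and 1276 to 1578 CPM in METTL5-cKO hearts, without overlap. The list's median per library did overlap, at 0.18 in METTL5-cKO library 3 and 0.23 in control library 1.

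Among 40 genes of collagens and matrix, 1 passed the adjusted p, Ndnf, and 12 were higher and 2 lower at an unadjusted p under 0.05. At that unadjusted p, 3.62% of all genes were higher and 3.43% lower. The groups were apart for 17.5% of the list (4.23% of all genes), and its median was 0.31. The list's median per library overlapped, at 0.15 in METTL5-cKO library 3 and 0.19 in control library 1. Mmp2, a gelatinase, had 26.7, 22.03, 22.6 and 22.2 CPM in controls and 34.6, 34.25, 31.99 and 38.85 CPM in METTL5-cKO hearts, without overlap (log2 fold change 0.58, SE 0.0985, adjusted p = 0.135 in edgeR, 4.6e-05 in DESeq2). Col3a1, a fibrillar collagen gene, had 49.9 to 81.7 CPM in controls and 155, 146, 47.9 and 57.2 CPM in METTL5-cKO libraries 1 to 4 (log2 fold change 0.56, SE 0.3699, adjusted p = 0.889). Col1a1 showed the same split, with libraries 1 and 2 above libraries 3 and 4, at 67.6, 83.55, 36.1 and 45.3 CPM (log2 fold change 0.07, SE 0.244, adjusted p = 0.999). The basement membrane collagen genes Col4a1 and Col4a2, which overlap each other on opposite strands, were the lower pair, each with a log2 fold change of -0.40 and groups that were apart (adjusted p = 0.358 and 0.414). Fn1 and Postn, for fibronectin and periostin, had log2 fold changes of 0.18 and 0.46 (adjusted p = 0.852 and 0.6498).

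Macrophage markers lay above 0 for 10 of 10 genes, with 5 higher and 0 lower at an unadjusted p under 0.05, 0 past the adjusted p and a median log2 fold change of 0.39. Their sum was 120.5 to 156.2 CPM in controls and 161.7 to 193.4 CPM in METTL5-cKO hearts. Their median per library overlapped, at 0.07 in METTL5-cKO library 3 and 0.20 in control library 1. Cd163, a scavenger receptor of resident macrophages, had 13.3, 10.03, 10.4 and 7.97 CPM in controls and 14.15, 17.3, 16.3 and 14.3 CPM in METTL5-cKO hearts. Its groups were apart, with control library 1 close to the lowest METTL5-cKO library (log2 fold change 0.57, SE 0.153, adjusted p = 0.358). Of 24 chemokine and complement genes, 0 passed the adjusted p, 6 were higher and 0 lower at an unadjusted p under 0.05 (3.62% and 3.43% of all genes), and the median was 0.19. C1qc, a chain of complement C1q, had 22.9 to 27.4 CPM and 28.6 to 37.04 CPM (log2 fold change 0.36, SE 0.1065, adjusted p = 0.452).

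Endothelial markers lay below 0 for 11 of 11 genes, with 0 past the adjusted p, 0 higher and 3 lower at an unadjusted p under 0.05, and a median of -0.31. Kdr, the VEGF receptor 2, had 105, 179.9, 163 and 126 CPM in control libraries and 78.2, 89.4, 72.8 and 79.75 CPM in METTL5-cKO libraries. No METTL5-cKO library reached the lowest control (log2 fold change -0.84, SE 0.161, adjusted p = 0.184 in edgeR, 0.000351 in DESeq2). Cdh5, VE-cadherin, had 148 to 214 CPM and 117 to 169 CPM, with overlap (log2 fold change -0.42, SE 0.145, adjusted p = 0.557). Pecam1 and Vwf had log2 fold changes of -0.22 and -0.01 (adjusted p = 0.943 and 0.9996). The summed levels overlapped, at 1032 to 1750 CPM in controls and 900.4 to 1401 CPM in METTL5-cKO hearts. The contractile smooth muscle genes Tagln, Cnn1 and Myh11 had log2 fold changes of -0.64, -0.81 and -0.51 (adjusted p = 0.459, 0.46 and 0.4845), while the median of the 9 smooth muscle and pericyte markers was 0.06. Cardiomyocyte markers had a median of -0.10, with 12 of 13 below 0. The part of these cell type markers in the changes of other genes was not tested.

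**Figure D4:**
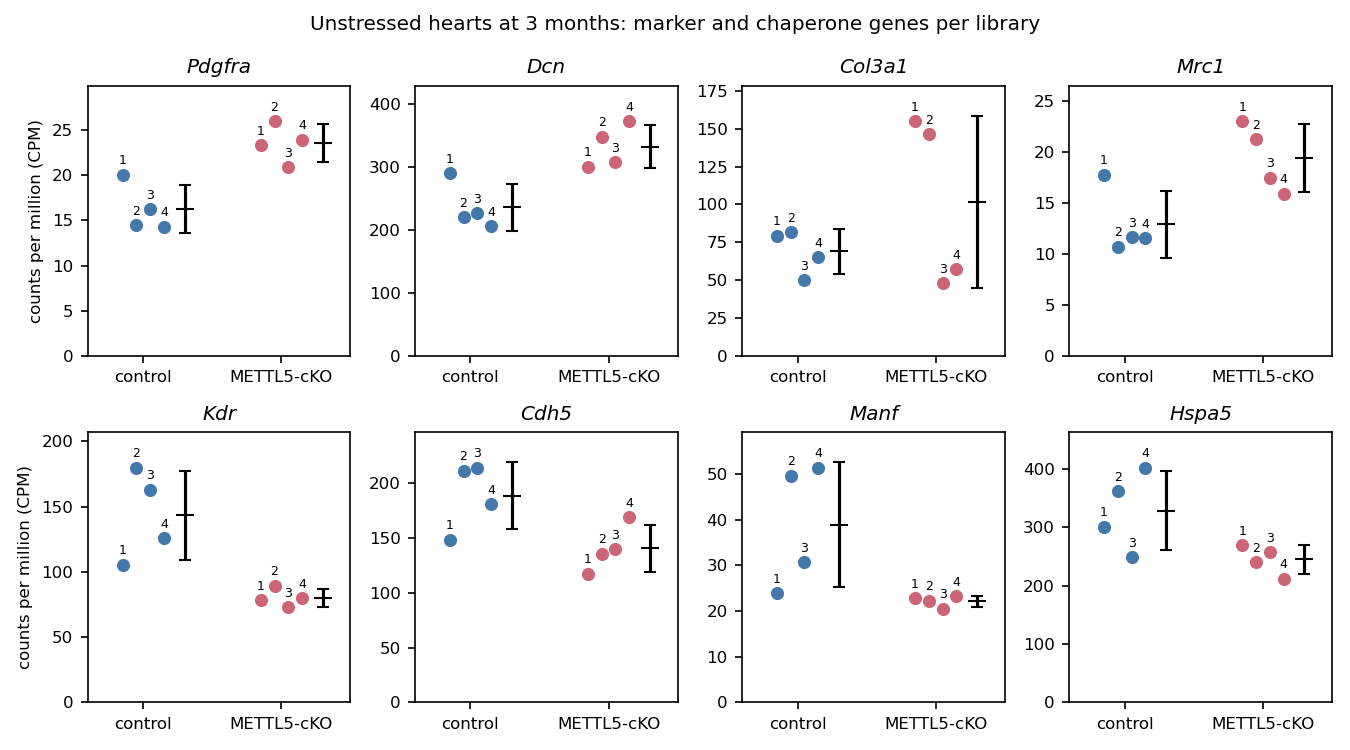
Each point is 1 library, numbered within its group, with CPM on a linear axis from 0; black marks are the mean and SD of 4 libraries. Pdgfra and Dcn were higher and Kdr and Manf lower in every METTL5-cKO library than in any control, Col3a1 split the METTL5-cKO libraries into 1 and 2 against 3 and 4, and Mrc1, Cdh5 and Hspa5 overlapped between the groups.

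Chaperones of the endoplasmic reticulum fold secreted and membrane proteins. Of 35 heat shock and chaperone genes, 0 passed the adjusted p, 0 were higher and 9 lower at an unadjusted p under 0.05 (3.62% and 3.43% of all genes), and the median was -0.22. The list's median per library overlapped between the groups, at 0.03, 0.01, -0.29 and 0.28 in control libraries 1 to 4 and -0.25, -0.20, -0.18 and -0.17 in METTL5-cKO libraries, so control library 3 was the lowest of all. Manf, a secreted stress protein of this compartment, had 23.9, 49.6, 30.7 and 51.35 CPM in controls and 22.8, 22.2, 20.5 and 23.2 CPM in METTL5-cKO hearts (log2 fold change -0.81, SE 0.224, adjusted p = 0.385). The METTL5-cKO libraries lay close together just below the lowest control. Hspa5, the chaperone BiP, had 301, 362, 248 and 402 CPM in controls and 269.6, 240.5, 257 and 212 CPM in METTL5-cKO hearts (log2 fold change -0.42, SE 0.149, adjusted p = 0.568). Control libraries 2 and 4 were the highest for both genes. The 34 interferon-stimulated genes tested had a median of -0.23, with 0 past the adjusted p, and 0 higher and 4 lower at an unadjusted p under 0.05. Their median per library was -0.64 and -0.60 in METTL5-cKO libraries 1 and 3 but -0.03 and 0.19 in libraries 2 and 4.

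Genes that respond to glucocorticoids, with the metallothioneins, had a median log2 fold change of 0.35 over 27 genes. Of these, 0 passed the adjusted p and 7 were higher and 0 lower at an unadjusted p under 0.05 (3.62% and 3.43% of all genes). Medians of this list per library overlapped, at 0.18 in METTL5-cKO library 2 and 0.24 in control library 1. METTL5-cKO library 3 had the highest, 0.67. Hif3a, a hypoxia-inducible factor subunit, had 1.68, 1.03, 2.22 and 1.001 CPM in controls and 3.48, 3.37, 7.01 and 3.43 CPM in METTL5-cKO hearts (log2 fold change 1.54, SE 0.331, adjusted p = 0.282 in edgeR, 0.0113 in DESeq2). Mt2, a metal-binding stress protein, had 19.3 to 29.95 CPM in controls and 32.01, 72.5, 90.7 and 43.8 CPM in METTL5-cKO hearts (log2 fold change 1.22, SE 0.299, adjusted p = 0.303 in edgeR, 0.01435 in DESeq2). Both genes separated the groups, and METTL5-cKO library 3 was the highest for each. Fkbp5, a classic glucocorticoid target, overlapped, at 12.4 to 49.5 CPM against 32.4 to 96.9 CPM. Egln3, the oxygen sensor PHD3, had 58.25, 59.7, 32.4 and 59.1 CPM in controls and 34.9, 19.3, 25.9 and 22.8 CPM in METTL5-cKO hearts, overlapping through control library 3 (log2 fold change -1.02, SE 0.228, adjusted p = 0.285 in edgeR, 0.00838 in DESeq2). The median of 25 hypoxia-inducible genes was -0.04.

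Among 31 NRF2 antioxidant genes, 0 passed the adjusted p, 5 were higher and 0 lower at an unadjusted p under 0.05 (3.62% and 3.43% of all genes), and the median was 0.05. Gclm, a subunit of the enzyme that starts glutathione synthesis, had 11.6 to 13.8 CPM in controls and 15.7 to 22.8 CPM in METTL5-cKO hearts (log2 fold change 0.56, SE 0.1296, adjusted p = 0.294). Gsta3, a glutathione transferase gene, had 2.44, 3.84, 10.3 and 13.9 CPM in METTL5-cKO libraries and 2.31 to 3.685 CPM in controls (log2 fold change 1.45, SE 0.4901, adjusted p = 0.5502). Of 30 genes of glucose use, 0 passed the adjusted p, 0 were higher and 2 lower at an unadjusted p under 0.05, and Pfkfb1, a bifunctional regulator of glycolysis, led the list by p (log2 fold change -0.78, SE 0.232, adjusted p = 0.446). Of 29 cell cycle genes, 0 passed the adjusted p, 3 were higher and 1 lower at an unadjusted p under 0.05, and Ccnd2, a D-type cyclin gene, had 60.7 to 83.7 CPM in controls and 92.8 to 107 CPM in METTL5-cKO hearts (log2 fold change 0.45, SE 0.106, adjusted p = 0.297). The 25 immediate early genes had a median of 0.16, and Egr1, a transcription factor gene induced within minutes of a stimulus, had 10.3, 14.7, 7.22 and 9.47 CPM in controls and 49.2, 11.6, 19.4 and 18.7 CPM in METTL5-cKO hearts (log2 fold change 1.25, SE 0.41, adjusted p = 0.521). Of 20 core clock genes, 0 reached an unadjusted p under 0.05. Calcium handling genes had a median of -0.03 over 28 genes, and Cacna1h, a T-type calcium channel gene, had 6.37 to 12.03 CPM in controls and 9.81 to 18.1 CPM in METTL5-cKO hearts (log2 fold change 0.80, SE 0.239, adjusted p = 0.452).

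Genes closest to the function of METTL5 lay near 0. Of 22 genes of RNA methylation, 0 passed the adjusted p, and the log2 fold changes ran from -0.21 to 0.14. Emg1, which methylates 18S ribosomal RNA at another site, had 26.6 to 30 CPM in controls and 23.8 to 26.04 CPM in METTL5-cKO hearts (log2 fold change -0.20, SE 0.0804, adjusted p = 0.638). Of 75 cytosolic ribosomal protein genes, 71 lay above 0 and 4 below, and 0 reached an unadjusted p under 0.05. Their median was 0.09, smaller in size than the SD of 0.221 between libraries of a group. The 31 ribosome biogenesis genes had a median of -0.03 and the 37 translation factors one of 0.04, with 2 higher and 0 lower at an unadjusted p under 0.05 in each list. Suz12, a subunit of the PRC2 complex that methylates histone H3, had 12.9 to 14.9 CPM in controls and 12.2 to 14.15 CPM in METTL5-cKO hearts (log2 fold change -0.03, SE 0.0943, adjusted p = 0.999). The PRC2 genes Ezh2 and Eed and the MEF2 transcription factor genes Mef2a and Mef2d had log2 fold changes of -0.07, -0.16, -0.01 and -0.01 (adjusted p = 0.999, 0.925, 0.999 and 0.999). Of the 19 PRC2 and MEF2 genes, 0 reached an unadjusted p under 0.05. With library size as the only scaling, the signs of Suz12, Mef2a and Mef2d turned. These are mRNA levels and carry no measure of protein.

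Of the 32 genes called by DESeq2, 19 were higher (0.105%) and 13 lower (0.072%). The 8 genes called by edgeR were among the 32. Ccn4, a WNT-induced matricellular gene, had 0.546 to 0.8395 CPM in controls and 1.26 to 2.35 CPM in METTL5-cKO hearts (log2 fold change 1.33, adjusted p = 0.159 in edgeR, 0.0266 in DESeq2). Plekha7 and Lad1, genes of cell junctions and anchoring filaments, had log2 fold changes of 1.06 and 1.09 (adjusted p = 0.184 and 0.184 in edgeR, 0.0093 and 0.00805 in DESeq2). Cenpf, a kinetochore gene, had 4.86 to 13.6 CPM in controls and 12.95 to 23.8 CPM in METTL5-cKO hearts, with overlap at control library 1 (log2 fold change 1.19, adjusted p = 0.316 in edgeR, 0.0306 in DESeq2). Eps8l1, an adaptor of actin signaling, had 13.4, 4.18, 6.745 and 7.101 CPM in controls and 2.26, 0.375, 0.1797 and 0.238 CPM in METTL5-cKO hearts (log2 fold change -3.35, adjusted p = 0.222 in edgeR, 0.0284 in DESeq2). Pcdhgb5 belongs to a cluster of protocadherin genes that share exons, so its count is uncertain (log2 fold change -1.86, adjusted p = 0.0629 in edgeR, 7.3e-05 in DESeq2). Pcdhgb5 lay just outside the adjusted p of 0.05 in edgeR, and Perp and Mylf-ps lay further outside, whereas Armcx4, at 0.0442, lay just inside.

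Other genes with small p and groups that were apart did not pass the adjusted p. Itm2a, a membrane protein of muscle and T cells, had 3.49 to 4.66 CPM in controls and 6.47 to 6.87 CPM in METTL5-cKO hearts (log2 fold change 0.70, SE 0.125, adjusted p = 0.159). Smco1 and Myo1e, an unconventional myosin gene, had log2 fold changes of -0.51 and -0.58 (adjusted p = 0.135 and 0.184). Gm49891, Poln and Zfp296 lay lower by log2 fold changes of -1.03, -1.33 and -1.49 and Eprn higher by 1.72 (adjusted p = 0.111, 0.147, 0.184 and 0.159), and of these Poln overlaps Haus3 and Zfp296 overlaps Gemin7.

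Several genes rested on few counts. 1700094D03Rik had 0 counts in each control library and 44, 37, 50 and 65 counts in METTL5-cKO libraries, at least 16-fold higher against a floor of 3 counts per library (adjusted p = 0.00967). After TAC the same gene had 0, 26, 32 and 48 counts in controls and 27, 0, 65 and 0 in METTL5-cKO hearts, and at 1 month 172, 75, 89 and 92 and 108, 83, 50 and 79. Libraries with 0 counts thus occurred in both genotypes. 2610028H24Rik, which overlaps Ybey on the other strand, had 0 counts in each control library and 21, 17, 44 and 16 in METTL5-cKO libraries, at least 7.93-fold higher (adjusted p = 0.0981 in edgeR, which it did not pass, and 2.4e-06 in DESeq2). The slow and fast troponin genes Tnni1 and Tnnt3 were too low to be tested in edgeR, with 0 counts in each control library and 14, 10, 10 and 9 counts of Tnni1 and 23, 14, 9 and 3 counts of Tnnt3 in METTL5-cKO libraries. Itih4, which DESeq2 called lower, had 0, 22, 19 and 15 counts in controls and 0 in each METTL5-cKO library.

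By position, the genes past the adjusted p lay on 9 chromosomes, with 1 that has no position in GENCODE vM21 left aside. None of these 12 genes lay on chromosome 2, which carries Mettl5. Within 5 Mb of Mettl5, 61 other genes were tested, of which 0 passed the adjusted p and 2 were higher and 4 lower at an unadjusted p under 0.05 (9.84%, against 7.05% of all genes). Within 10 Mb there were 103 genes, with 4 higher and 6 lower (9.71%) and a median log2 fold change of 0.04. Itga6, an integrin subunit that binds laminin, had the smallest p among them (log2 fold change -0.67, SE 0.143, adjusted p = 0.282).

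Values in hearts 4 weeks after transverse aortic constriction (TAC), a surgery that loads the left ventricle with pressure, were set beside those at rest. These were 8 other hearts, 4 METTL5-cKO and 4 control, so no library is shared. Their age is also given as 3 months. There, 2071 of 16340 genes passed the adjusted p (12.7%). Of the 12 genes past the adjusted p at 3 months, 7 passed it after TAC with the same sign and 0 with the opposite sign. Phlda3, Ndnf, 2310015A16Rik and Slc38a1 were higher after TAC, by log2 fold changes of 1.87, 1.37, 1.11 and 1.07 (adjusted p = 0.00128, 0.00573, 0.0148 and 0.0148). Ung and Dcakd were lower, at -0.79 and -0.73 (adjusted p = 0.00744 and 0.00744). Lsp1 and Armcx4 did not pass after TAC, at 0.33 and 0.17 (adjusted p = 0.108 and 0.525). Perp, at a log2 fold change of 0.57 after TAC (adjusted p = 0.00744), and Kcnv2, at -2.34 (adjusted p = 0.00857), had the same sign as at rest.

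Ucp2 and Myl1 did not pass the adjusted p after TAC. Ucp2 had a log2 fold change of 0.52 (SE 0.179, adjusted p = 0.08203) and Myl1 one of -0.32 (SE 0.334, adjusted p = 0.557). Whether the effects differed between the settings was tested by the interaction, the effect after TAC minus the effect at 3 months, which was -0.96 for Ucp2 (adjusted p = 0.151) and 1.37 for Myl1 (adjusted p = 0.209). Nppa, at 3.49 after TAC, had an interaction of 2.41 (adjusted p = 0.0935). By the interaction in edgeR, 0 of 17070 genes passed the adjusted p with an absolute log2 difference over 1, 2011 (11.8%) had an unadjusted p under 0.05, and DESeq2 called 142. Dipk2a passed the adjusted p at a smaller size, 1 gene of 17070 (0.00586%), with log2 fold changes of -0.22 at rest and 0.62 after TAC and an interaction of 0.85 (SE 0.116, adjusted p = 0.0343). In hearts of METTL5-KO mice aged 1 month, a knockout of the whole animal, 0 of the 12 genes passed the adjusted p against their own controls (0.00612% of all genes did). Myl1 had a log2 fold change of -1.51 there (SE 0.381, adjusted p = 0.9725), and Phlda3 one of 0.36 (SE 0.205, adjusted p = 0.9725).

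**Figure D5:**
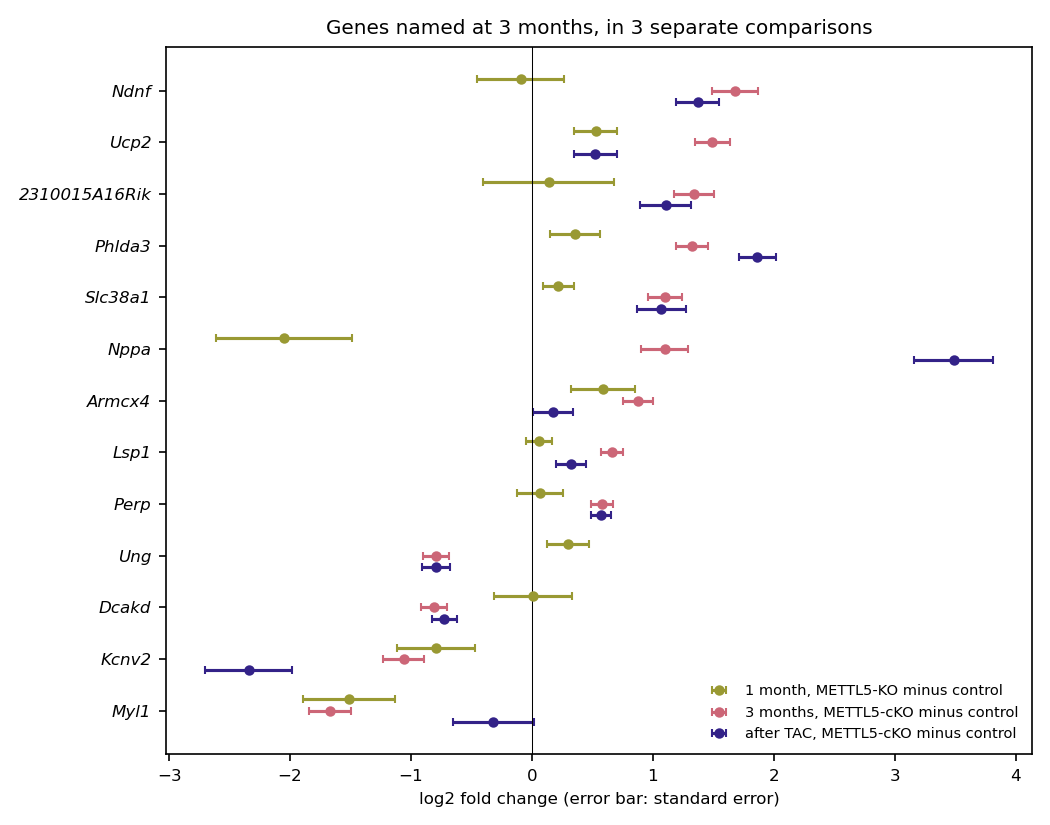
For each gene, points give the log2 fold change in hearts at 1 month, at 3 months and after TAC, each against its own 4 controls, with standard errors as bars. Ndnf, 2310015A16Rik, Slc38a1, Perp, Ung and Dcakd have the same sign at 3 months and after TAC, while the points of Nppa and Kcnv2 lie further from 0 after TAC and those of Ucp2 and Myl1 nearer to 0.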

How the data were processed

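RNA of 8 hearts of 3-month-old mice was profiled by RNA-seq, 4 METTL5-cKO and 4 control, and the tables of hearts at 1 month and after TAC, with 8 samples each, were read beside them. The authors aligned reads with HISAT2 (2.0.4 in the submitters' processing notes) to GRCm38 and deposited estimated counts per gene made with StringTie 2.1.4, as whole numbers. The annotation release and strandedness are not given in the sources used here. The 3-month table holds 55487 genes, of which 55141 IDs were found in GENCODE vM21. The rat cardiomyocyte table was not used here. Column names of the 3-month and TAC tables give the group of a library and a number that matches no sample label. Replicates are the samples that the labels name, and p-values measure the spread between them.

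Each comparison was fitted alone in edgeR 4.0.16 (R 4.3.3): filterByExpr (minimum count 10, minimum total 15), TMM scaling, estimateDisp, glmQLFit, glmQLFTest and Benjamini-Hochberg adjustment over all genes tested. Calls needed an adjusted p under 0.05 with an absolute log2 fold change over 1. The biological coefficient of variation was 0.181, and the SE of a gene's log2 fold change had a median of 0.157. The interaction was fitted over the TAC and 3-month libraries together. On counts simulated for the 3-month comparison (16130 genes), 193 of 200 changed genes were recovered with 5 false calls. Recovery was not tested for small log2 fold changes or for genes with few counts, so 193 of 200 does not cover them. Exact permutation tests used the 70 labellings of 4 against 4 libraries on log2 CPM (prior count 2). No 2 libraries of a group agreed within sampling noise. Alternatives were DESeq2 1.42.0, its size factors, library size alone, no filter, 10 counts in every sample, and each library left out. Lists were described by counts and medians, without a test. Older symbols of 14 ATP synthase genes were matched through RefSeq synonyms.

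The genes, lists and rules were chosen with earlier results of these data known. The lists include genes that the paper reports as changed in this comparison, among them Ndnf, Slc38a1, Phlda3, Hif3a, Mt2, Eprn, Plekha7 and Lad1. That a list holds such a gene is therefore no finding about the list, and the counts given for lists include these genes. Genes were named from a rule: METTL5 partners and cardiac markers, genes past the adjusted p, genes called by DESeq2, the 15 higher and 15 lower genes with the smallest p whose groups do not overlap, the 3 leading members of each list, and marker genes. Others, such as Ankrd1, Cdkn1a, Asns and Col4a1, were added after their values were seen as members of the lists described. Of the 8 called genes, 1 is not reported here by name.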

Additional observations from a re-analysis of the deposited data

Results flagged for a closer look

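In 12 of 114 groups of 4 libraries over 57 named genes (10.5%), 1 library stood apart from the other 3 by Dixon's test at the 95% level. Chance flags about 1 in 20 groups. Among the controls, library 1 stood apart for Trmt112 (8.58 CPM, others 10.38 to 10.74), Suz12 (14.9 CPM, others 12.88 to 13.13) and Mmp2 (26.7 CPM, others 22.03 to 22.59). Control library 2 stood apart for Phlda3 (6.44 CPM, others 5.04 to 5.24), control library 3 for Egln3 (32.4 CPM, others 58.25 to 59.66), and control library 4 for Atp6ap1l (0.182 CPM, others at 0).

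Among the METTL5-cKO libraries, library 1 stood apart for Eps8l1 (2.26 CPM, others 0.18 to 0.375) and library 2 for Nppb (181.9 CPM, others 94.68 to 104.2). Library 3 stood apart for Hif3a (7.01 CPM, others 3.374 to 3.482), 2610028H24Rik (1.98 CPM, others 0.762 to 0.9495), Smco1 (7.46 CPM, others 7.046 to 7.099) and, below the others, Atp6ap1l (0.674 CPM, others 0.8435 to 0.859).

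Dipk2a was marked because its genotype effect differed between hearts after TAC and unstressed hearts, by 0.85 on the log2 scale (edgeR quasi-likelihood test of the interaction, adjusted p = 0.0343).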

How the results depend on the processing

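The 8 genes called at 3 months were also called with DESeq2's size factors in edgeR and with library size alone. DESeq2's Wald test called 32 genes, no filter on low counts left 1, and 100 genes passed at an unadjusted p. Leaving out single libraries gave 2 to 8 genes at 3 months, with 2 without control 4 and 3 without control 2, 0 to 2 at 1 month, 217 (without TAC control 4) to 827 (without TAC METTL5-cKO 4) after TAC, and 0 to 347 (without TAC METTL5-cKO 4) for the interaction. With at least 10 counts in every sample 8 genes were called, 7 of them shared, with 1700094D03Rik lost and Pcdhgb5 gained. The 1 gene called at 1 month became 8 with DESeq2, 0 with library size alone and 95 at an unadjusted p. After TAC, 474 genes became 2071 without a minimum fold change. The interaction gave 142 genes with DESeq2, 1 without a minimum fold change and 487 at an unadjusted p.

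Library size alone turned the sign of the log2 fold change of Suz12 (0.0194), Mef2a (0.0364) and Mef2d (0.0446). With single libraries left out, log2 fold changes crossed 0, from -0.1414 to 0.0302 for Trmt112, -0.0724 to 0.0204 for Suz12, -0.1530 to 0.0082 for Ezh2, -0.1722 to 0.1218 for Mef2a, -0.0546 to 0.0400 for Mef2d, -0.2719 to 0.2552 for Nppb and -0.1593 to 0.2385 for Col1a1. The cause was not tested. Library size alone moved the median of all genes to 0.05. No paired analysis was made at 3 months or after TAC, because the labels do not pair METTL5-cKO with control hearts. With a block for replicate number, the 1-month comparison gave 1 gene, as without it. The labels do not say that these numbers mark pairs.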
